A study of Rattus norvegicus with 96 samples.

Results

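Of 96 libraries of mRNA and small RNA from 12 rats, the 12 mRNA libraries labelled brain (called PFC in the study) were compared between a whole egg diet (6 rats) and a casein diet (6 rats). A gene was tested where 6 or more of the 12 libraries held 10 or more counts, which kept 8593 of the 32883 genes listed. All rats were individually housed male Sprague Dawley rats, fed for 2 weeks and sampled at 9 weeks of age after an overnight fast. Both diets held the same share of protein by weight. The casein diet took its fat from corn oil, and in the whole egg diet dried whole egg supplied the protein and egg lipid took the place of corn oil, so that protein source, fat source and dietary cholesterol cannot be told apart. Each library is 1 rat, so the p-values measure the spread between rats. The total count per library was 3673566 to 7105361 on casein and 2109815 to 6576440 on egg. Each count is 1 read near the 3′ end of a transcript, and levels are CPM, counts scaled to a common library total, after scaling by trimmed mean of M-values (TMM). Diet effects are log2 ratios of egg to casein with their standard error (SE). Library 12, an egg rat, stood apart from the other 11. It lay at 68.9 on the first principal component, which held 44.1% of the variance of the 1000 most variable genes, where the others lay between -25.0 and 6.54. Egg rat 10 lay at 41.2 on the second component (16.0%), where the others lay between -14.6 and 4.23. Where leaving out rat 12 changed the call of a gene described here, the value without it is given too.

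The label was first set against marker genes, the cell type genes that could be found by symbol. Cps1, the mitochondrial enzyme that opens the urea cycle in hepatocytes, ranged from 1283 to 2417 CPM in the brain-labelled libraries, and its median in the tables labelled adipose, liver and kidney was 28.8, 14.8 and 9.49 CPM. Cyp2c22, a hepatic cytochrome P450 of retinoid metabolism, ranged from 158 to 2627 CPM here and had medians of 4.89, 13.8 and 4.15 CPM in the other tables. Ptgds, the prostaglandin D synthase of meninges and glia, had a median of 2.51 CPM here and 1291 CPM in the kidney-labelled table. Ptprn, a protein of neuronal and endocrine secretory granules, had medians of 8.14 and 509 CPM in the same order. The hepatocyte genes were thus highest in the table labelled brain, and the genes of neural tissue in the table labelled kidney. Of the markers listed, 3 of 11 were found for hepatocytes, 1 of 8 for neurons, 1 of 6 for glia and meninges, 5 of 10 for kidney tubule, 2 of 7 for connective tissue, and 0 for adipocytes, macrophages and blood, and none of those found was at 0. Cyp2c22, Cyp4a1 and Ptprn have a symbol because the study picked them from this contrast, so nothing is read from diet differences in the sums below. The summed level of the 3 hepatocyte genes was 1850 to 2580 CPM on casein and 1762 to 4974 CPM on egg. That of the only neuronal marker was 2.8 to 8.26 and 7.06 to 19.7 CPM, that of the only glial one 1.96 to 5.54 and 0.961 to 7.71 CPM, and that of the 2 connective tissue genes 34.1 to 45.0 and 20.5 to 82.0 CPM. In bulk tissue, fewer cells of a type and less RNA per cell cannot be told apart.

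**Figure D1:**
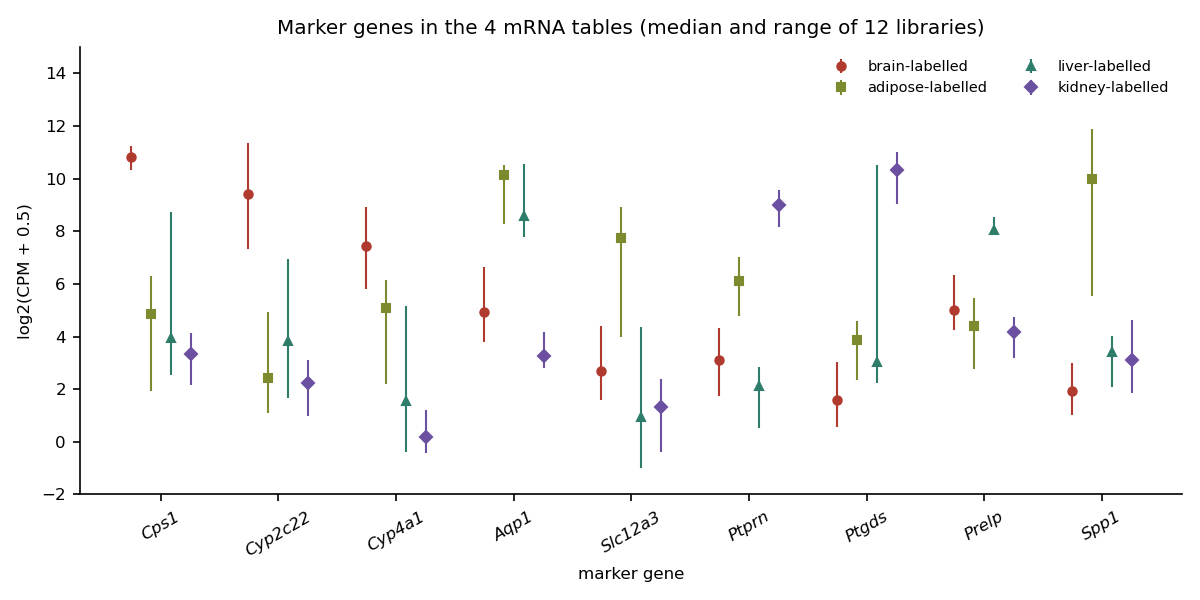
Level of 9 marker genes on a log2(CPM + 0.5) axis in the 4 mRNA tables. Points are medians and bars the range of 12 libraries. The brain-labelled points are highest for Cps1, Cyp2c22 and Cyp4a1, and lie below the kidney-labelled ones for Ptprn and Ptgds.

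The small RNA libraries carrying the same 4 tissue labels gave another picture, and 2 microRNAs are shown because they mark liver and brain. MiR-122-5p is the dominant microRNA of hepatocytes, and miR-9a-5p is enriched in neural tissue. Their mature sequences (RefSeq, GRCr8) are written 5′ to 3′ with the seed, bases 2 to 8, in capitals.
rno-miR-122-5p: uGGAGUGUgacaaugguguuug
rno-miR-9a-5p: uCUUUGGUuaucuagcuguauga
MiR-9a-5p ranged from 96030 to 294273 CPM of all microRNA counts in the 12 brain-labelled small RNA libraries, without TMM scaling, and it was not listed in the liver-labelled small RNA table. MiR-122-5p ranged from 226240 to 467597 CPM in the liver-labelled small RNA libraries and from 613 to 6160 CPM in the brain-labelled ones. The 2 microRNAs therefore followed the liver and brain labels of small RNA, and the mRNA markers did not follow theirs. No microRNA was used to check the adipose and kidney labels. The highest miR-122-5p level was 16716 CPM among adipose-labelled and 44468 CPM among kidney-labelled small RNA libraries (medians 1788 and 2010). That of miR-9a-5p was 18247 and 4867 CPM (medians 1761 and 1044). The mRNA table is called brain-labelled throughout, and no tissue other than the label is assigned to it.

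Cells make cholesterol from acetyl-CoA through the mevalonate pathway. When sterols in the endoplasmic reticulum are scarce, SREBP2, a transcription factor, is released from its membrane anchor and turns on nearly every enzyme of the route, and the related SREBP1c does so for fatty acid enzymes. Insig1 holds SREBP in the membrane when sterols are plentiful. The liver is the main organ of both routes, and brain makes its own sterol locally because lipoprotein cholesterol does not cross the blood-brain barrier.

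On egg, 6 enzymes of sterol and polyunsaturated fatty acid synthesis fell and 2 amine-metabolising enzymes rose in the brain-labelled table. In edgeR's quasi-likelihood test (Benjamini-Hochberg), 8 of 8593 genes passed an adjusted p of 0.05, which is 0.0931% of the genes tested. The 6 that fell (0.0698%) were Sqle, Cyp51, Msmo1, Fads1, Idi1 and Hmgcs1, and the 2 that rose (0.0233%) were Hdc and Inmt. In all 8 genes the ranges of the diets did not overlap, which held for 46 of all genes tested (0.535%), 20 higher (0.233%) and 26 lower (0.303%). Before adjustment, a p under 0.05 was reached by 207 genes with higher levels (2.41%) and 143 with lower ones (1.66%), together 4.07% of those tested. Gene symbols came only from genes the study named, 48 of those used being named for this table on these same libraries, so the names are not independent of the contrast.

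Squalene epoxidase, encoded by Sqle (ENSRNOG00000009550), carries out the first oxygenation step of sterol synthesis. It was counted 22 to 94 times per library on casein and 0 to 6 times on egg, where the counts of the 6 rats came to 9 in all. Its level was 6.17 CPM at the lowest, 11.8 at the median and 16.7 at the highest on casein, and 0, 0.284 and 0.970 CPM on egg. The lowest casein rat was thus above every egg rat, and egg rats 5 and 12 had no count. The log2 ratio was -4.87 (SE 0.508, edgeR adjusted p = 2.4e-04, lower in 6 of 6 egg rats), a value that depends on the prior count because so few reads remained on egg.

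Upstream of squalene, Hmgcs1 (ENSRNOG00000016552) makes HMG-CoA, and Idi1 (ENSRNOG00000016690) interconverts the isoprene units from which longer chains are built. Hmgcs1 had 53.0, 82.6 and 131 CPM (lowest, median and highest) on casein and 14.9, 23.9 and 42.6 CPM on egg. The highest egg rat lay below the lowest casein rat. Its log2 ratio was -1.77 (SE 0.287, edgeR adjusted p = 0.0123), and it did not pass without egg rat 4 (edgeR adjusted p = 0.0588). Idi1 had 15.1, 21.6 and 35.0 CPM on casein and 0.308, 3.85 and 4.94 CPM on egg. Its lowest egg value, 1 read, was that of rat 12, and the other 5 egg rats were between 2.56 and 4.94 CPM. The log2 ratio of Idi1 was -2.73 (SE 0.364, edgeR adjusted p = 0.00149).

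Downstream of lanosterol, Cyp51 (ENSRNOG00000007234) removes the first methyl group of the sterol nucleus and Msmo1 (ENSRNOG00000032297) oxidises the methyl groups that remain at another carbon. Cyp51 had 60.9, 75.1 and 149 CPM on casein and 16.0, 19.8 and 28.4 CPM on egg. Msmo1 had 57.8, 59.2 and 95.8 CPM on casein and 13.5, 20.5 and 24.9 CPM on egg. In both genes casein rat 11 stood above the other casein rats, which lay between 60.9 and 86.7 CPM for Cyp51 and between 57.8 and 61.9 CPM for Msmo1. The log2 ratio was -2.06 for Cyp51 (SE 0.243, edgeR adjusted p = 6.4e-04). For Msmo1 it was -1.74 (SE 0.214, edgeR adjusted p = 6.4e-04).

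The 3 other cholesterol enzymes described did not pass edgeR's test. DESeq2's Wald test called Fdps (adjusted p = 0.0149) and Nsdhl (0.00318) but not Ebp (0.0695). Fdps, which makes farnesyl diphosphate, had 66.1, 76.4 and 164 CPM on casein and 20.2, 26.8 and 74.9 CPM on egg. Its groups overlapped through egg rat 12 alone, since the other egg rats reached at most 29.5 CPM. The log2 ratio of Fdps was -1.39 (SE 0.320, edgeR adjusted p = 0.189), and without rat 12 it was -1.79 with an edgeR adjusted p of 2.9e-04. Nsdhl, a sterol dehydrogenase, had a log2 ratio of -0.65 (SE 0.161) and Ebp, a sterol isomerase, one of -0.64 (SE 0.183), with edgeR adjusted p-values of 0.266 and 0.436.
Of 18 cholesterol synthesis genes listed, 8 were found and tested. Of these, 5 fell, against 0.0698% of all genes tested, and 0 rose. Without rat 12, 6 of the 8 fell, against 15 of all 8593 genes. Lower levels without overlap between diets were found in 7 of the 8, against 0.303% of all genes. The median log2 ratio of the 8 was -1.76, against 0.03 over all genes tested. All 8 carry a symbol because the study picked them from these libraries, so nothing is read from these counts. The summed level of the 8 enzymes was 643, 693 and 946 CPM on casein and 294, 343 and 347 CPM on egg. Casein rat 11 was highest of the casein rats in 5 of the 8 enzymes and casein rat 1 lowest in 4. Among egg rats, rat 12 was lowest in 3 of the 8 and rat 4 highest in 3, so that no rat led the whole list.

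**Figure D2:**
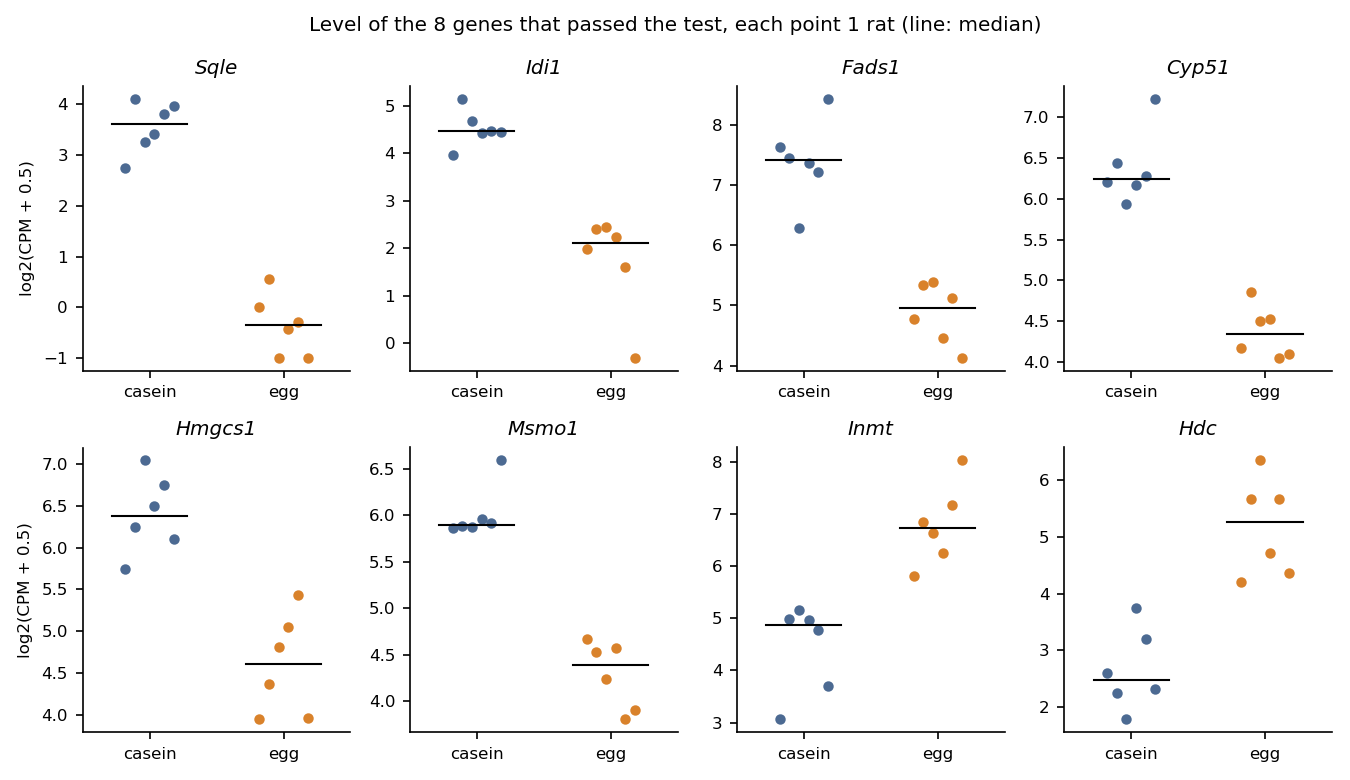
Level of the 8 genes that passed the test, on a log2(CPM + 0.5) axis with its own range in each panel. Each point is 1 rat (6 on casein, 6 on egg) and each line a median. No panel shows an overlap between the diets, and the lowest egg point of Idi1 is rat 12.

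CCAAT boxes, bound by NF-Y, are a known partner element of SREBP sites. Among the 6 enzymes that fell, Cyp51 held no such box in its promoter window, and no promoter was at hand for Sqle. The promoters of the other 4 are shown. Each runs from 250 bases before to 50 after the start site (RefSeq, GRCr8), 5′ to 3′ on the gene's strand, with CCAAT on either strand (read as ATTGG on the other) in capitals. The windows are chr2:53382054-53382353 (plus strand) for Hmgcs1, chr17:66547475-66547774 (minus strand) for Idi1, chr16:29746863-29747162 (plus strand) for Msmo1 and chr1:216252442-216252741 (plus strand) for Fads1.
Hmgcs1: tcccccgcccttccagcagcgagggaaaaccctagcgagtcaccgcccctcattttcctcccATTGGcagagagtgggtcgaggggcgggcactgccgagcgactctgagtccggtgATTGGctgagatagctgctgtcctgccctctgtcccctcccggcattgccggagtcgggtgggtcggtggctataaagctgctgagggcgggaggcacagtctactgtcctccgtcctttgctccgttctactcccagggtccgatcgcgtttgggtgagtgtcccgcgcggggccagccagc
Idi1: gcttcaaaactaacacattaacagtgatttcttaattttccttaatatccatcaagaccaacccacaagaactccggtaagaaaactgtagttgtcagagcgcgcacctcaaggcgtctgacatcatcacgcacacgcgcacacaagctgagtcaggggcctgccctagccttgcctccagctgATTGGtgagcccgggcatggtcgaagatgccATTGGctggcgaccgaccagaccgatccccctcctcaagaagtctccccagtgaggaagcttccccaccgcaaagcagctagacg
Msmo1: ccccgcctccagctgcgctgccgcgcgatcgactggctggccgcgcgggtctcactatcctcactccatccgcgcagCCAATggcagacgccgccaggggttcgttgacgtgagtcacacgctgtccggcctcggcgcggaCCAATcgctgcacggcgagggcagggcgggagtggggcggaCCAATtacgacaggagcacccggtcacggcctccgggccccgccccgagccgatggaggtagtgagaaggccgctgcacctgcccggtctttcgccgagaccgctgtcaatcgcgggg
Fads1: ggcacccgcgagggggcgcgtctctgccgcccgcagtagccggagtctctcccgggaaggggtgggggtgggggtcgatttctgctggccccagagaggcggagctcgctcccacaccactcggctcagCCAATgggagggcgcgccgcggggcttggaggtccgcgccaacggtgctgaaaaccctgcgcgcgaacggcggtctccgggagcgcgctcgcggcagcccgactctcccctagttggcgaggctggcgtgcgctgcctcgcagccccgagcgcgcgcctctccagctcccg
Hmgcs1 and Idi1 held 2 such boxes each, Msmo1 3 and Fads1 1. Promoters were at hand for 7 of the 8 cholesterol enzymes, and 6 of the 7 (85.7%) held the letters, as did 37.5% of all 33469 promoters of the same length; Cyp51 had none. The classical SRE letters TCACNCCAC, searched on both strands, were in 0 of these 7 and in 1.12% of all promoters. A match of letters is a description of the window and does not show binding.

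Among fatty acid enzymes, 1 fell. Fads1 (ENSRNOG00000020480), a desaturase of arachidonic and eicosapentaenoic acid synthesis, had 77.2, 170 and 345 CPM on casein and 17, 30.6 and 41.6 CPM on egg. The lowest casein rat exceeded the highest egg rat. Its log2 ratio was -2.61 (SE 0.321, edgeR adjusted p = 6.4e-04), with an edgeR adjusted p of 0.0512 when rats 2, 10 and 12 were left out.
Of 10 fatty acid synthesis genes listed, 5 were tested and 0 passed edgeR's test, with a median log2 ratio of -1.20 against 0.03 over all genes. All 5 have a symbol because the study picked them from this contrast, so nothing is read from their median. Without rat 12, 3 of the 5 fell, namely Acly, Fasn and Acss2, against 15 of all 8593 genes. Acly, which supplies cytosolic acetyl-CoA from citrate, had 66.8, 115 and 179 CPM on casein and 30.9, 48.3 and 64.7 CPM on egg, with no overlap (log2 ratio -1.31, SE 0.254, edgeR adjusted p = 0.0621, and 0.0207 without rat 12). Fasn, the fatty acid synthase, had 20.6, 32.2 and 50.3 CPM on casein and 7.43, 13.2 and 19.4 CPM on egg, again with no overlap (log2 ratio -1.34, SE 0.280, edgeR adjusted p = 0.114, and 0.0123 without rat 12). Acss2, which makes acetyl-CoA from acetate, was the third member without overlap (log2 ratio -1.20, SE 0.256, edgeR adjusted p = 0.117, and 0.0146 without rat 12).
Scd, the desaturase that makes oleic from stearic acid, had the opposite sign. It had 36.5, 164 and 242 CPM on casein and 149, 532 and 691 CPM on egg (log2 ratio 1.78, SE 0.439, edgeR adjusted p = 0.266). Egg rat 12 gave the lowest egg value, and the other 5 egg rats, from 466 CPM, were above every casein rat. The adjusted p of Scd without rat 12 was 0.194 from edgeR.

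Of 14 genes of sterol regulation and uptake, 1 was found, and it did not pass edgeR's test. Insig1 had 3.93, 9.55 and 28.2 CPM on casein and 1.28, 2.47 and 5.55 CPM on egg, and its groups overlapped (log2 ratio -1.97, SE 0.487, edgeR adjusted p = 0.266).

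Hdc and Inmt rose. Hdc (ENSRNOG00000010262), the decarboxylase that makes histamine, had 2.94, 5.06 and 13 CPM on casein and 17.9, 38.2 and 81.2 CPM on egg. Every egg rat was above every casein rat, with egg rat 5 highest. Its log2 ratio was 2.65 (SE 0.418, edgeR adjusted p = 0.0104), and its adjusted p with each rat left out was 0.0044 to 0.0488 from edgeR.
Inmt (ENSRNOG00000011250), which transfers methyl groups to indoleamines, had 7.85, 28.8 and 35.0 CPM on casein and 55.7, 106 and 259 CPM on egg. Egg rat 12 was highest and the next egg rat had 143 CPM, and the groups did not overlap. The log2 ratio was 2.36 (SE 0.393, edgeR adjusted p = 0.0155). Inmt did not pass without casein rat 9 (adjusted p = 0.055) or 11 (0.0656), nor without egg rats 2, 10 and 12 together (0.0570), all from edgeR. The amine list of 7 genes held no other member with a symbol.

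In the remaining lists 0 genes passed edgeR's test with all 12 rats. DESeq2's Wald test did call members of these lists, Gstm2 (adjusted p = 3.8e-04), Cyp4a1 (0.00397) and Echdc1 (0.00685) among them. Members of these lists have a symbol only because the study named them, so nothing is read from the signs or medians of these lists. Of 22 genes of acyl-CoA handling and fatty acid oxidation, 6 were tested, 4 with a positive and 2 with a negative log2 ratio (median 0.54). Cyp4a1, a fatty acid hydroxylase that responds to PPAR alpha in rat liver, had 56.2, 94.5 and 197 CPM on casein and 131, 355 and 485 CPM on egg (log2 ratio 1.61, SE 0.354, edgeR adjusted p = 0.134). Echdc1, an enzyme that clears an unwanted malonyl-type CoA by-product, lay apart on the other side, with 3.24, 6.23 and 10.0 CPM on casein and 1.23, 2.18 and 2.75 CPM on egg (log2 ratio -1.65, SE 0.353, edgeR adjusted p = 0.117).
Of 12 drug and retinoid metabolism genes, 6 were tested, and all 6 log2 ratios were positive, with a median of 0.74. The study picked Cyp2c22, Ephx1 and Gstm2 from this contrast. Gsta3, Gstp1 and Gstz1 were named on another table of the same rats, so nothing is read from the signs or the median. Gstm2, a glutathione transferase, had 71.6, 97.8 and 105 CPM on casein and 125, 198 and 214 CPM on egg, without overlap (log2 ratio 0.94, SE 0.189, edgeR adjusted p = 0.0811, and 0.0155 without rat 12). Cyp2c22 had 319, 530 and 762 CPM on casein and 158, 1493 and 2627 CPM on egg. Egg rat 12 was below every casein rat, and the other egg rats, from 1380 CPM, were above every casein rat. Its log2 ratio was 1.54 (SE 0.423, edgeR adjusted p = 0.395), and without rat 12 it was 1.78 with an edgeR adjusted p of 1.3e-04.
Of 8 genes of glucose and carbohydrate metabolism, 1 was tested. Tkfc, a kinase of fructose metabolism, had a log2 ratio of -1.32 (SE 0.353, edgeR adjusted p = 0.356). The 3 tested genes of amino acid and urea metabolism, of 10, and the 4 tested signalling and stress genes, of 7, had medians of 0.32 and 0.52. None of the 6 bile acid synthesis genes listed had a symbol.

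Of 48 genes the study named for this table, 46 were tested, and 23 of them separated the diets without overlap, 10 higher and 13 lower on egg. Over all genes tested the share without overlap was 0.535%, with 0.233% higher and 0.303% lower. The choice of the 48 rests on this contrast, so nothing is read from the count. Of the genes given next, Wee1 and Il1rn belong to the signalling and stress list, and Ivd and Dbi to the list of acyl-CoA handling. Glt1d1, a glycosyltransferase-like gene outside the lists, had 0.751, 2.59 and 6.11 CPM on casein and 7.09, 11.8 and 19.8 CPM on egg, without overlap (log2 ratio 1.96, SE 0.413, edgeR adjusted p = 0.114, and 0.0155 without rat 12). Wee1, a kinase that holds cells before mitosis, had 9.96, 15.4 and 16.3 CPM on casein and 20.9, 25.0 and 30.4 CPM on egg, also without overlap (log2 ratio 0.79, SE 0.190, edgeR adjusted p = 0.256). Both groups were tight for Wee1, and its lowest egg rat lay above its highest casein rat.
Ivd, an enzyme of leucine breakdown, had 280, 409 and 424 CPM on casein and 461, 607 and 1440 CPM on egg, with rat 12 highest (log2 ratio 0.93, SE 0.253, edgeR adjusted p = 0.381). Dbi, the acyl-CoA binding protein, had 645, 1017 and 1585 CPM on casein and 415, 556 and 844 CPM on egg, and the groups overlapped through rat 12 (log2 ratio -0.89, SE 0.235, edgeR adjusted p = 0.336, and 0.0199 without rat 12). Il1rn, the interleukin-1 receptor antagonist, ranged widely on casein, with 58.1, 124 and 410 CPM there and 33.6, 61.3 and 89.4 CPM on egg (log2 ratio -1.60, SE 0.386, edgeR adjusted p = 0.256). Gdnf, a neurotrophic factor, and Spry4, an inhibitor of receptor tyrosine kinase signalling, each reached 10 counts in 5 libraries and so were not among the genes tested. Gdnf was counted 4 to 56 times per library on casein and 0 to 8 times on egg. With no filter on low counts Gdnf passed (log2 ratio -2.48, SE 0.537, edgeR adjusted p = 0.0430), and Spry4 had an edgeR adjusted p of 0.170.

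**Figure D3:**
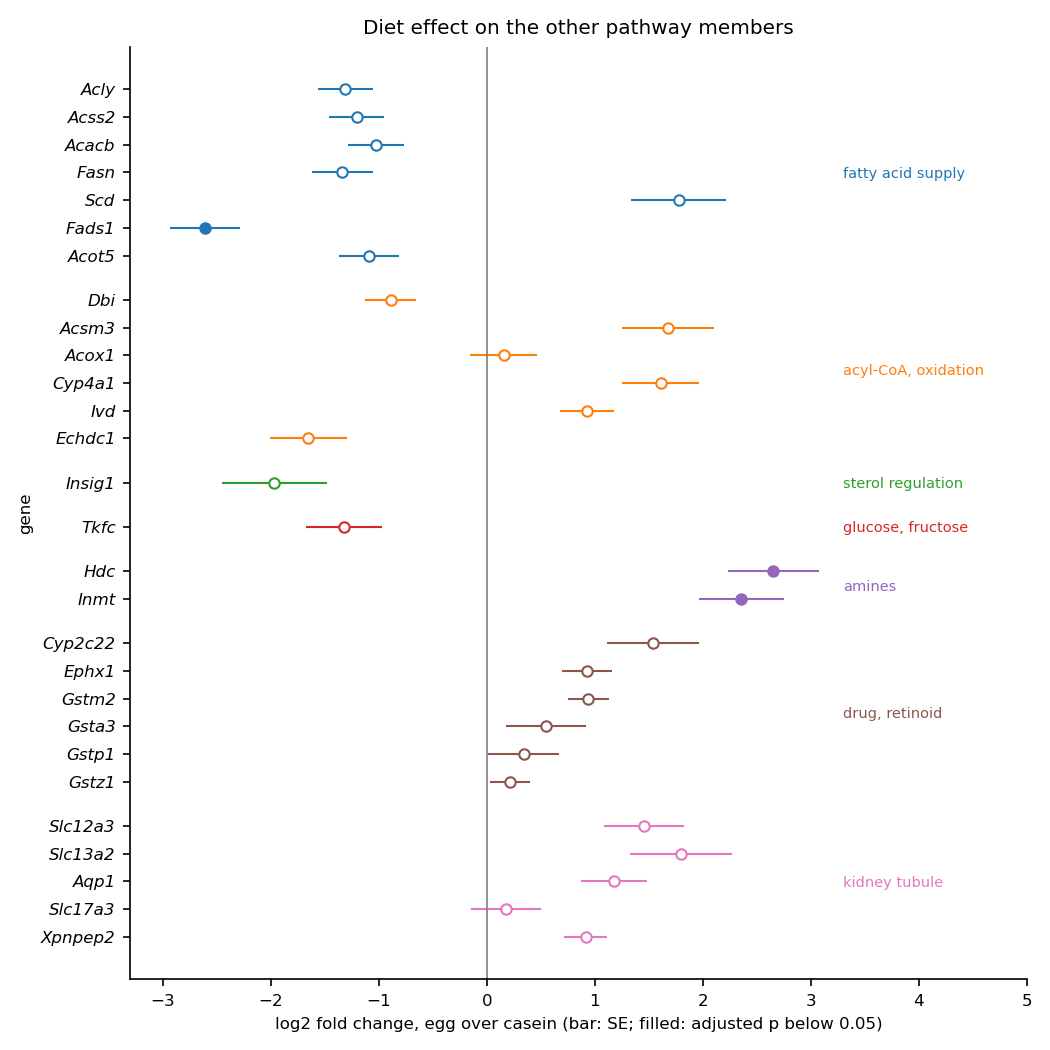
Log2 ratio, egg over casein, of 28 genes outside the cholesterol list, by group. Bars are SE and filled points passed an edgeR adjusted p of 0.05. Filled points are Fads1 at -2.61, Hdc at 2.65 and Inmt at 2.36, and Scd lies on the other side of 0 from Acly, Acss2, Acacb and Fasn.

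Of 10 kidney tubule genes listed, 5 had a symbol and were tested, and 0 passed edgeR's test (2 without rat 12, against 26 of all 8593 genes). Aqp1, Slc12a3, Slc13a2 and Xpnpep2 have one because the study picked them from this contrast, so nothing is read from their direction or their sum. Slc17a3, a phosphate and urate carrier, was named on another table and had medians of 24.2 CPM on casein and 23.6 CPM on egg. The summed level of the 5 genes was 51.5 to 88.3 CPM on casein and 112 to 155 CPM on egg. Slc12a3, the thiazide-sensitive cotransporter, had 2.5, 4.9 and 6.32 CPM on casein and 4.93, 14.5 and 20.4 CPM on egg (log2 ratio 1.46, SE 0.367, edgeR adjusted p = 0.275, and 0.0224 without rat 12). Xpnpep2, an aminopeptidase, had an edgeR adjusted p of 0.135, and 0.0146 without rat 12. Set against the adipose-labelled table, where all 5 were highest, the casein and egg medians were 1.67% and 3.27% of the level there for Aqp1. They were 2.32% and 6.88% for Slc12a3, 4.13% and 13.7% for Slc13a2, 47.1% and 88.1% for Xpnpep2, and 35.5% and 34.6% for Slc17a3.
Genes restricted to another table were looked for in each brain-labelled library, where restricted means a median of 50 CPM or more there and 1 CPM or less here. A low share in these libraries follows from that definition, so nothing is read from its size. The limit of 1 CPM was taken over both diets together and removes genes with higher levels in most of these libraries. The tests below therefore cannot show that the diets are alike in this share. The 63 genes of the adipose-labelled table had a summed level of 0.138% to 0.640% of that in their own table. The 48 genes of the liver-labelled table stood at 0.205% to 0.890%, and the 336 of the kidney-labelled table at 0.207% to 0.764%. The egg minus casein difference of the log2 share was 0.28, -0.05 and 0.20 in that order, with p = 0.489, 0.861 and 0.567 by two-sided exact permutation tests over all 924 splits (n = 6 each, adjusted p = 0.851, 0.861 and 0.851 over the 3 tests).

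The study named 23 further genes on the other tables only, so their choice did not use this contrast, although it used the same rats. Of these, 20 were tested here, 0 passed, 0 separated the diets without overlap, and their adjusted p from edgeR was 0.991. Their log2 ratios ranged from -0.78 to 0.55 with a median of 0.23, against 0.03 over all genes. Csad, the decarboxylase that makes hypotaurine on the way to taurine, had a log2 ratio of -0.63 (SE 0.254, unadjusted edgeR p = 0.0235), with 5 of 6 egg rats below the lowest casein rat. Akr1c14, a steroid-metabolising aldo-keto reductase with close paralogs that may take or give reads, had -0.18 (SE 0.284), Anxa5, a phospholipid-binding annexin, 0.31 (SE 0.243) and Spp1, osteopontin, -0.34 (SE 0.419).

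Whether the diet effect was the same in the other mRNA tables was tested by the table by diet interaction over 48 libraries. All 3 differences use the same brain-labelled libraries and so are not independent of each other. The diet effect differed from that of the kidney-labelled table in 5 of 8593 genes (0.0582%), which were Sqle, Cyp51, Msmo1, Idi1 and Fads1. It differed from that of the adipose-labelled table in 13 genes (0.151%), these 5 and Hmgcs1 among them. From that of the liver-labelled table it differed in 26 genes (0.303%), among them all 8 genes that passed in the brain-labelled table.
The kidney-labelled minus brain-labelled difference in log2 ratio was 4.69 for Sqle (SE 0.728, adjusted p = 3.4e-04), 2.71 for Idi1 (SE 0.490, adjusted p = 0.00221) and 2.52 for Fads1 (SE 0.425, adjusted p = 0.00109), all from edgeR. It was 2.01 for Cyp51 (SE 0.396, adjusted p = 0.00962) and 1.78 for Msmo1 (SE 0.318, adjusted p = 0.00221), from the same test. These enzymes were present in the kidney-labelled libraries, with median levels of 30.9 CPM for Sqle, 17.9 for Idi1, 44.3 for Fads1, 82.8 for Cyp51 and 112 for Msmo1. In the kidney-labelled table the mean level of Sqle was 34.9 CPM on casein and 30.8 CPM on egg, where the brain-labelled means were 11.8 and 0.339 CPM.
The libraries are from the same rats across tables, and with the rat as a block (replicate block) the numbers were 10 for adipose, 5 for liver and 5 for kidney. The count against the liver-labelled table moved most, from 26 to 5, and the 5 were Sqle, Cyp51, Msmo1, Idi1 and Fads1. The differences of Hdc, Inmt and Hmgcs1 from the liver-labelled table did not pass with the block (edgeR adjusted p = 0.245, 0.134 and 0.138). The 6 called genes that differed from the adipose-labelled table and the 5 that differed from the kidney-labelled one passed with the block as well. Without the block, the count against the liver-labelled table was 4 to 36 with each rat left out in turn. It was 4 to 15 when rat 1, 3, 4, 5, 6, 7, 9, 11 or 12 was left out. The count against the adipose-labelled table, also without the block, was 7 or 8 without rat 1, 2, 8 or 11. In the liver-labelled libraries of rats 3, 4 and 5, genes restricted to the brain-labelled table stood at 8.43%, 8.61% and 23.8% of their level here, and in the other 9 rats at 0.397% to 3.16%. Without those 3 rats, a choice made after seeing the data, the numbers were 8 for adipose, 8 for liver and 3 for kidney, the last being Sqle, Idi1 and Fads1.

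**Figure D4:**
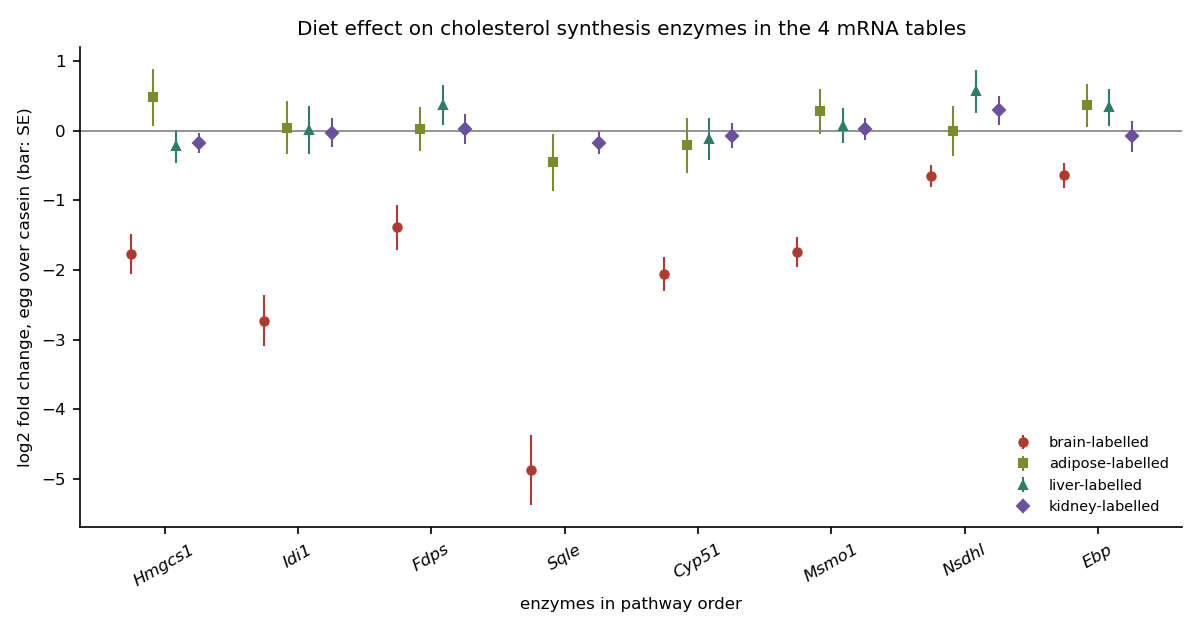
Log2 ratio, egg over casein, of 8 cholesterol enzymes in pathway order, fitted in each mRNA table by itself. Bars are SE. Brain-labelled points run from -0.64 for Ebp to -4.87 for Sqle, and the points of the other tables lie nearer 0; Sqle was too low to be tested in the liver-labelled table.

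Results were recomputed without rat 12, which stood apart, and without rats 2, 10 and 12, all on egg. The latter set was named in earlier results of these data, so it was a choice made after seeing them. Without rat 12, 26 genes passed, 11 higher and 15 lower, all 8 above among them. Among those gained were Acly, Acss2, Cyp2c22, Dbi, Fasn, Fdps, Glt1d1, Gstm2, Slc12a3 and Xpnpep2. Without rats 2, 10 and 12, 17 genes passed, and 6 of the 8 remained, without Fads1 and Inmt. Sqle, Idi1, Fads1, Cyp51 and Msmo1 passed with every rat left out in turn, as did Hdc. DESeq2's Wald test called 32 genes (0.372%), 15 higher and 17 lower, the 8 above among them. Named genes that it called and edgeR did not were Fdps, Nsdhl, Insig1, Acly, Acss2, Fasn, Echdc1 and Il1rn, all lower. On the higher side they were Scd, Acsm3, Cyp4a1, Ephx1, Gstm2, Glt1d1, Arrdc3, Wee1, Slc12a3, Slc13a2, Xpnpep2 and ENSRNOG00000000978. Limma-voom called the same 8 as edgeR.

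**Figure D5:**
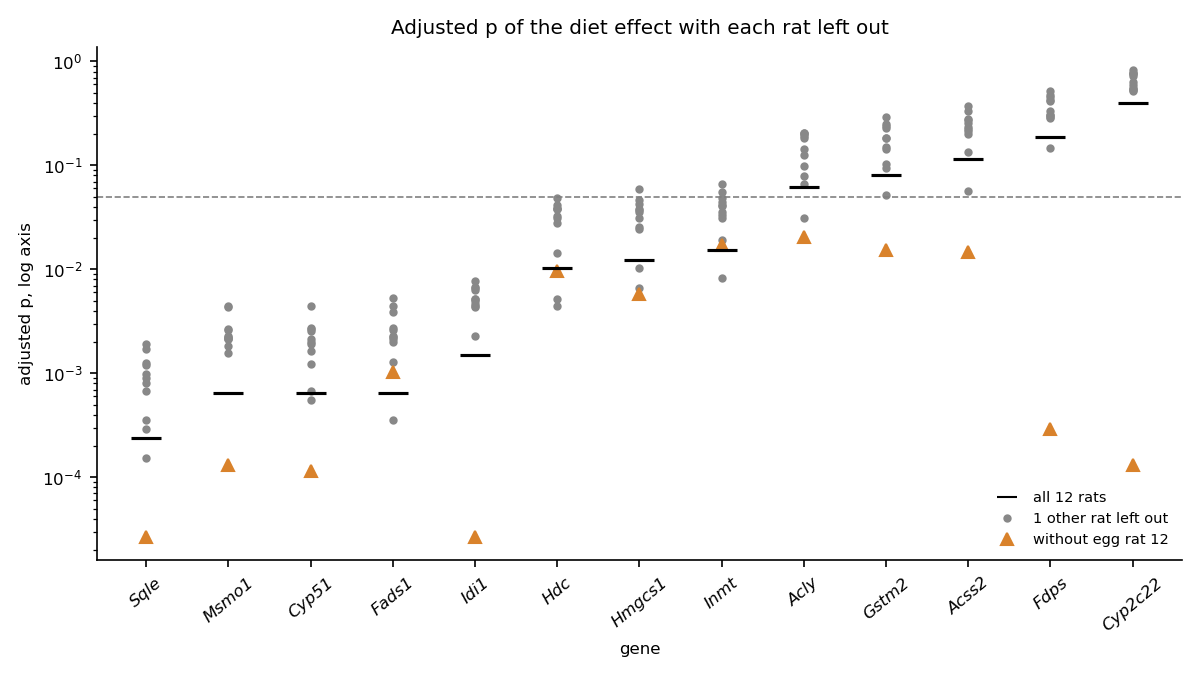
Adjusted p of the diet effect (log axis) for the 8 genes that passed and 5 that did not. Black bars use all 12 rats, grey points leave out 1 other rat, triangles leave out egg rat 12, and the dashed line is 0.05. Without rat 12, Fdps reached 2.9e-04 and Cyp2c22 1.3e-04.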

How the data were processed

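Messenger RNA was measured by QuantSeq 3′ sequencing in 48 libraries, 12 of them labelled brain, and the small RNA counts were used only to check the label. According to the study's methods, the authors trimmed the mRNA reads with BBDUK, aligned them with STAR (version 2.5.2) to the rat genome (version 6, Ensembl release 94) and deposited raw counts per gene; FastQC and DESeq are named in the submitters' processing notes. The authors' comparison tables (mean, log2 fold change, SE, statistic, p and adjusted p) were not used.

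Columns were matched to samples on tissue, kind of library and the animal's number. Diets came from the column headings, since the sample labels do not give them. Of the gene IDs, 0 matched the RefSeq table (GRCr8), so symbols are those the study gave, used for 71 gene IDs, and IDs it gave with no gene symbol are printed as such. Some genes of the lists are not reported here and were left out of the lists' counts. The members, lists and tests were chosen with earlier results of these data known. Named genes are every gene that passed, up to 15 per direction with a symbol, list members with a symbol, and markers.

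Counts were scaled by TMM and tested with edgeR 4.0.16 (robust quasi-likelihood, Benjamini-Hochberg adjusted p under 0.05; limma 3.58.1, DESeq2 1.42.0, R 4.3.3). Scripts were tested on simulated data. By the labels, a number marks the same rat in every table, and the interaction was therefore fitted a second time with rat as block; deviations from the diet means correlated across tables with medians of 0.0528 to 0.0765 (-0.257 to 0.253). Different diets share no rat. The closest pair of brain-labelled libraries differed by a chi-square of 12.2 for each degree of freedom, so none was counted as a copy. Alternatives were DESeq2, limma-voom, 2 other scalings, 2 other filters, no robust estimation, a threshold of 0.01, and rats left out. Figures used matplotlib 3.10.9.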

Additional observations from a re-analysis of the deposited data

Results flagged for a closer look

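Of 92 groups of 6 rats (46 genes, 2 diets), 13 held a rat that stood far from the others by Dixon's criterion. For independent, normally spread values chance gives about 1 in 20. The CPM were not log-transformed, and the genes were picked from this contrast and measured in the same rats. The 13 are therefore not read against that rate. Egg rat 12 was the highest of its diet in 5 of the 13. It had 101 CPM of Aqp1 (next 40.4), 1440 of Ivd (next 757), 252 of ENSRNOG00000013949, an isocitrate dehydrogenase (next 120), 781 of Tmem205 (next 571) and 74.9 of Fdps (next 29.5). Casein rat 11 was highest of its diet in 3 sterol genes, with 149 CPM of Cyp51 (next 86.7), 95.8 of Msmo1 (next 61.9) and 164 of Fdps (next 82.4). The other 5 were casein rat 3 for Ivd (280 CPM, lowest, next 391), casein rat 6 for Reep3 (103, highest, next 67.8), casein rat 1 for Sft2d2 (50.8, lowest, next 64.3), casein rat 9 for Acot5 (36.6, highest, next 22.3) and egg rat 5 for Acacb (19.1, highest, next 12.9).

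The diet effect differed between tables, by edgeR's interaction test at an adjusted p under 0.05, in 11 genes with a symbol for the adipose-labelled, 12 for the liver-labelled and 5 for the kidney-labelled table. Values are the other table minus the brain-labelled one in log2 fold change. Against adipose they were 4.40 for Sqle, 2.78 for Idi1, 2.49 for Fads1, 1.89 for Cyp51, 2.27 for Hmgcs1, 2.03 for Msmo1, 1.66 for Acss2 and 1.65 for Csad. They were -3.17 for Akr1c14, -1.84 for Anxa5 and -1.66 for Prelp. These 3 genes and Csad did not pass in the brain-labelled table itself. Against liver they were 5.72 for Sqle, 2.71 for Idi1, 2.79 for Fads1, 1.92 for Cyp51, 1.52 for Hmgcs1, 1.79 for Msmo1, 1.72 for Fdps, 2.63 for Tkfc and 1.61 for Acss2. They were -2.90 for Hdc, -2.81 for Inmt and -1.18 for Wee1. Sqle was too low to be tested in the liver-labelled table by itself, with a median of 3.08 CPM and 141 counts in all. With the rat as a block, the differences from liver no longer passed for Hdc (edgeR adjusted p = 0.245), Inmt (0.134), Wee1 (0.146), Hmgcs1 (0.138), Fdps (0.0617), Tkfc (0.130) and Acss2 (0.166), nor did those from adipose for Acss2 (0.133) and Prelp (0.0864). Against kidney the values were 4.69 for Sqle, 2.71 for Idi1, 2.52 for Fads1, 2.01 for Cyp51 and 1.78 for Msmo1.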

How the results depend on the processing

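The 8 genes called from the brain-labelled table became 32 with DESeq2's Wald test (15 higher, 17 lower), 17 with no filter on low counts (4 higher, 13 lower), 5 at an adjusted p under 0.01, and 17 without rats 2, 10 and 12. The count was 8 with limma-voom, DESeq2 size factors, upper-quartile scaling and no robust estimation, and 6 when 10 counts were asked of all 12 libraries, which removed Sqle and Idi1 from the test. With each rat left out it was 7 to 26, the highest without rat 12. No log2 fold change of the 46 tested genes named for this table changed sign under any alternative run, and 5 of those fits lost a call, namely Inmt 3 times and Fads1 and Hmgcs1 once each. Pairing applies only between tables, since the diets share no rat. With the replicate block, genes whose diet effect differed numbered 10 for adipose, 5 for liver and 5 for kidney, against 13, 26 and 5 without it. With each rat left out they numbered 7 to 17, 4 to 36 and 4 to 6, and without rats 3, 4 and 5 they numbered 8, 8 and 3. The share of liver-restricted genes differed by -0.05 (log2, egg minus casein) and was -0.27 to 0.15 with each rat left out, above 0 without rat 3, 7, 8, 10 or 11; that of kidney-restricted genes (0.20) was -0.00559 to 0.37, below 0 without rat 5. None of these passed the exact test, which cannot show that the diets are alike because the genes were chosen on the same libraries. The causes were not tested. Sqle on egg rests on 9 reads in 6 libraries, and of the genes under the filter Gdnf passed where none was applied (edgeR adjusted p = 0.0430).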
